A study of Mus musculus with 6 samples.

Results

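Irradiated M1 macrophages (RM1) were compared with non-irradiated M1 macrophages (M1), 2 of the 6 libraries of the series, each made from pooled RNA. Reads were joined gene by gene, scaled over the 6 libraries and given as the log2 ratio of RM1 to M1. Of 24062 genes in the files, 11443 had 10 or more counts in at least 1 of the 2 libraries and were used. A gene was called higher or lower where the ratio reached 2-fold. The question was which functions of macrophages activated by LPS and IFN-γ faded, persisted or rose after irradiation. A function is described as fading where members were at least 2-fold lower in RM1, as rising where they were at least 2-fold higher, and as persisting where they lay within 2-fold.

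The cells were RAW264.7, a mouse macrophage line, although the tissue field of the labels reads bone marrow. M0 cells received no polarizing agent, M1 cells received LPS at 100 ng/mL with IFN-γ at 20 ng/mL for 24 h, and M2 cells received IL-4 at 20 ng/mL for 24 h. These are the concentrations of the labels, and a figure legend of the study gives lower ones for both cytokines. RM0, RM1 and RM2 are the same states after 10 Gy of gamma rays from a caesium source and a further 24 h in culture. For each condition the RNA of 5 wells was pooled into 1 library, so no difference below has a replicate check and no p-value is given. Intervals in brackets are exact Clopper-Pearson 95% intervals of the log2 ratio and cover counting error only. Whether the non-irradiated M1 cells were also kept 24 h longer, and whether LPS and IFN-γ stayed in the medium, is not given in the sources used here, so radiation, time in culture and time since stimulation cannot be told apart. In pooled RNA of whole cultures, fewer cells expressing a gene and less of its RNA per cell cannot be told apart either.

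LPS is sensed by TLR4 with its helpers CD14 and MD-2 and drives NF-κB and MAP kinases, which switch on genes for cytokines, chemokines and prostaglandin synthesis. IFN-γ acts through its receptor and the kinases JAK1 and JAK2, which leads to activity at GAS elements and induces IRF1. The latter with other IRFs binds ISRE elements of guanylate-binding proteins, of the immunoproteasome and of antigen transporters. LPS also induces IFN-β, which through STAT2 and IRF9 reaches ISRE elements of antiviral genes. The combination gives the classically activated macrophage, which makes nitric oxide, presents antigen, recruits T cells and attacks microbes inside vacuoles.

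The M1 library held 18472101 counts and the RM1 library 18870516, within the range of 17894937 to 18870516 over the 6. The TMM scaling factors were 0.8004 in M1 and 0.8836 in RM1, against 1.05 to 1.134 in the other 4 libraries. The log2 ratio moved with the GC content of the genes. Its median was 0.23 in the fifth of genes with the lowest GC content and -0.23 in the fifth with the highest, and where a named gene went under 2-fold when this trend was removed, that value is given with the gene. The macrophage markers Itgam (24525 counts in M1, 27725 in RM1) and Csf1r (4855 and 5561) had log2 ratios of 0.00 and 0.02, and 0 of 14 macrophage identity genes used were called. Epithelial markers summed to 0 counts in all 6 libraries, B cell markers to 1 to 5, dendritic cell markers to 15 to 37 and endothelial markers to 62 to 122. Of 7 T and NK cell markers found, Lck alone passed the limit of 10 counts. Neutrophil markers summed to 32481 counts in M1 and 51252 in RM1, of which S100a8, also an activation gene of macrophages, gave 32464 and 51228, while Mpo, Elane and Ngp were under the limit. S100a9 had 3 and 19 counts (2.00, interval 0.73 to 4.89) and Camp 13 and 4 (-1.50). Fibroblast markers summed to 648 and 765 counts, of which Dcn gave 627 and 726 and Lum 14 and 34 (1.03, or 0.79 with the GC trend removed), with Col1a1, Col1a2, Col3a1, Pdgfra and Pdgfrb under the limit. The part of any other cell type in the results was not tested.

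In RM1 against M1, 353 genes were higher, 3.08% of those used, and 258 were lower, 2.25%. The median log2 ratio over all genes was -0.012. With the libraries scaled by their totals alone, 482 genes were higher and 202 lower, and the median moved to 0.129. Among the 9128 genes with 100 or more counts in at least 1 library, 104 were higher and 100 lower, and at 4-fold 9 were higher and 25 lower. In the other states fewer genes were called, with 84 higher (0.719%) and 96 lower (0.821%) in RM0 against M0, and 122 higher (1.03%) and 110 lower (0.932%) in RM2 against M2. A total of 23 lists of M1 functions held 350 genes, of which 307 were used. Of these, 14 were higher (4.56%), 45 were lower (14.7%) and 248 lay within 2-fold, with a median of -0.22. Of the 45 lower genes, 15 were interferon-inducible GTPases and 8 served MHC class I antigen processing, as the plot of the lists shows.

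**Figure D1:**
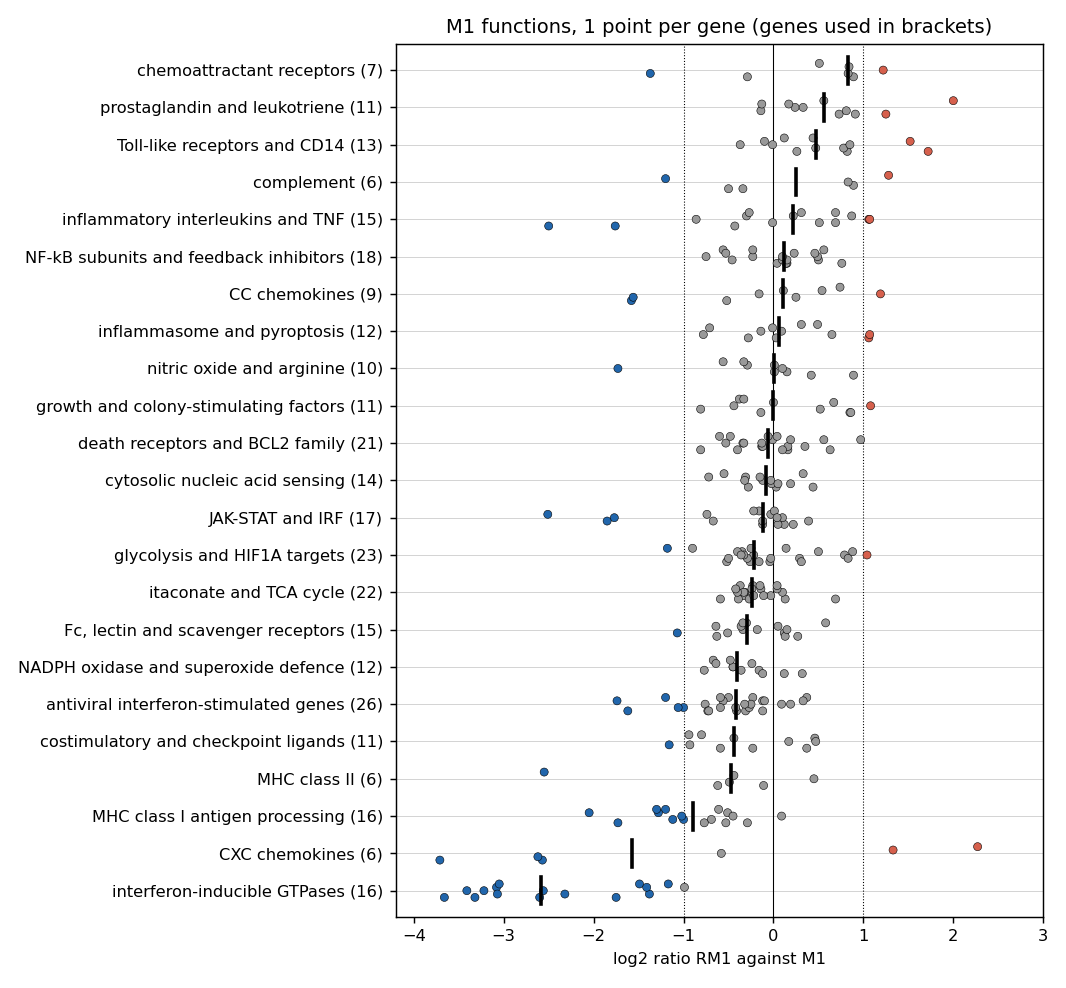
Log2 ratio of RM1 to M1 (x axis) for each gene used of the 23 lists of M1 functions (y axis), 1 pooled library per condition. Red points are at least 2-fold higher, blue points at least 2-fold lower, and the black bar is the median of the list. The interferon-inducible GTPases stand apart at a median of -2.58, and the NF-κB list at 0.12 holds no called gene.

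Interferon-inducible GTPases had the lowest median of the 23 lists. This family comprises the guanylate-binding proteins (GBPs) and the immunity-related GTPases (IRGs), which coat vacuoles holding intracellular pathogens and disrupt them. Of 16 members used, 15 were lower in RM1 and 0 higher, with a median log2 ratio of -2.58 that lay between -2.84 and -2.44 under every alternative scaling and filter. Gbp2 (NM_010260, chromosome 3, listed from 142624575 to 142638008) had 4.34 scaled counts per 1e6 reads (CPM) in M0, 2.91 in RM0, 408 in M1 and 43.5 in RM1. Its RM1 value was thus between the M0 and the M1 value, and the log2 ratio of RM1 to M1 was -3.22 (-3.34 to -3.12), on 6032 and 726 counts. Gbp2b had 2.67, 2.35, 310 and 36.5 CPM in the same order and Gbp5, which promotes inflammasome assembly, had 0.706, 0.612, 194 and 23.1. Both fell, by 3.08 and 3.07 on the log2 scale. Gbp4 fell from 444 to 38 counts, a log2 ratio of -3.66 (-4.24 to -3.24), the lowest of the list.

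Among the IRGs, Iigp1 fell from 138 to 13 counts, with a log2 ratio of -3.41, and Igtp, also called Irgm3, from 3743 to 843, with -2.32. Irgm1 and Irgm2 had shallower falls, with log2 ratios of -1.41 and -1.17. In M0 Iigp1 had 0.151 CPM, while Irgm2 had 32.2 and so was expressed before LPS and IFN-γ were added. Gbp7 was the member not called, at -0.99 (1527 and 865 counts). Tgtp1 did not pass the limit, and its near copy Tgtp2 had 41 counts in M1 and 3 in RM1, a log2 ratio of -3.32 (-6.28 to -2.30). Near-identical family members may share reads, which the counting could have split.

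All 16 GTPases used were called higher in M1 against M0, where 9.37% of genes were higher and 13.3% lower. In RM1 against RM0, where 6.16% were higher and 7.87% lower, 12 of the 13 used were still called higher, with a median of 3.06. M1 against M0 shares the M1 library with RM1 against M1, and RM1 against RM0 shares the RM1 library, so these values are given side by side only. In the pairs that share no library with RM1 against M1, 0 of 9 GTPases used were called in RM0 against M0 and 1 of 8 in RM2 against M2, which was lower.

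**Figure D2:**
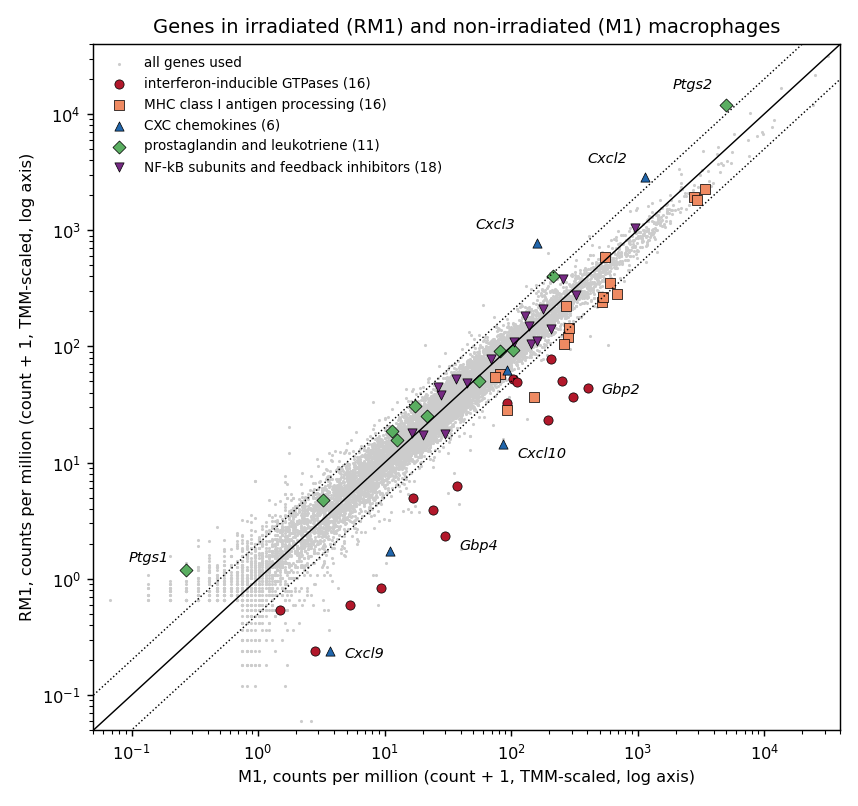
CPM (from the count plus 1) in M1 (x axis) and RM1 (y axis), both on log axes, for all 11443 genes used. Coloured points are named lists, and dotted lines mark 2-fold. Of the 16 GTPases, 15 lie under the lower line, and Nos2 lies between the lines at 11492 CPM in M1 and 7775 in RM1.

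To show what the lower and higher genes carry in front of their start sites, promoters of 300 bases (250 before to 50 after the start) were taken from RefSeq on GRCm38.p6. The letters searched on both strands were GGGNNTTTC (κB), GAAANNGAA (the core of an ISRE), TTCNNNGAA (GAS) and TGANTCA (AP-1). Promoters were found for 8593 of the 11443 genes. The ISRE core stood in 7.49% of these, in 34 of 156 promoters of genes called lower (21.8%) and in 18 of 262 of genes called higher (6.87%). GAS stood in 7.08% of all, 12.2% of lower and 9.16% of higher genes, AP-1 in 4.85%, 9.62% and 11.1%, and κB in 4.39%, 6.41% and 4.58%. All 9 GTPase promoters found held the ISRE core and 5 held GAS. The letters of the ISRE core and GAS can overlap, as they do in the Serpina3f promoter. A match describes letters only and is no measure of binding.

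The following promoters belong to the lowest and highest M1 function genes with 100 or more counts, apart from Gbp4 and Iigp1 (Gbp2, Gbp2b, Cxcl3, Tlr13), to the lowest gene of all (Serpina3f), and to Irf1, Cxcl10 and Cxcl2, which were chosen after their values were seen. No promoter was found for Gbp4, or for Thbd, the highest gene with 100 or more counts, so neither is shown. Capitals mark matches to κB, ISRE core or GAS. Positions are chr3:142620413-142620712 (plus strand) for Gbp2, chr3:142594597-142594896 (plus) for Gbp2b, chr12:104214383-104214682 (plus) for Serpina3f, chr11:53769764-53770063 (plus) for Irf1, chr5:92348840-92349139 (minus) for Cxcl10, chr5:90785851-90786150 (plus) for Cxcl3, chr5:90903649-90903948 (plus) for Cxcl2 and chrX:106143025-106143324 (plus) for Tlr13. The starts the files list for Gbp2 and Serpina3f lie downstream of the RefSeq starts used.
Gbp2: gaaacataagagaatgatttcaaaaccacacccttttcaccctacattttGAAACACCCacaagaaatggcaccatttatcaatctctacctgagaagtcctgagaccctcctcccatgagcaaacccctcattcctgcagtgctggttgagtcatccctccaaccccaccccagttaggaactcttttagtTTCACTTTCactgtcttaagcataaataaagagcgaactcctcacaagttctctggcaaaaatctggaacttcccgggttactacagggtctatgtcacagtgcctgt
Gbp2b: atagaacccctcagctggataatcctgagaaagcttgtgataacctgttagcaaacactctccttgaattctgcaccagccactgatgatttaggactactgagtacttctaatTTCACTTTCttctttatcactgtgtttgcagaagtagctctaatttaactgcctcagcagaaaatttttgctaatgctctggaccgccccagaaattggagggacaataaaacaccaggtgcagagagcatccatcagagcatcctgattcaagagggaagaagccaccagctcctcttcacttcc
Serpina3f: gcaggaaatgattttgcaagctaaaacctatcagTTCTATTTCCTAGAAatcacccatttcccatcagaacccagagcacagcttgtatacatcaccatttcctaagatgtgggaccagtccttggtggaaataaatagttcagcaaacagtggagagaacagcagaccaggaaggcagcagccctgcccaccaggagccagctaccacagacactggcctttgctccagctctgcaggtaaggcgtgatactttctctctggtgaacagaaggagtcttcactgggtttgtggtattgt
Irf1: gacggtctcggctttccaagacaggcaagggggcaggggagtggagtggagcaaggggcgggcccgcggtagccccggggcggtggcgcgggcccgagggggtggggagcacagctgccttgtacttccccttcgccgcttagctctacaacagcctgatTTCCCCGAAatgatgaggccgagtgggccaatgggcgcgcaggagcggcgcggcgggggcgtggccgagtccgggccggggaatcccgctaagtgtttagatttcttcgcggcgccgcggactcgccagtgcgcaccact
Cxcl10: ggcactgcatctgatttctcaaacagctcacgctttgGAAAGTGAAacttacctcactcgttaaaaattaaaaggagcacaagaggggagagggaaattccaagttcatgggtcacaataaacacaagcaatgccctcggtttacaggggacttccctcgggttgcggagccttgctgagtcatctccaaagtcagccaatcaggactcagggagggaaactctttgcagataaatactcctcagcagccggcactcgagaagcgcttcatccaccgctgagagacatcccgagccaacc
Cxcl3: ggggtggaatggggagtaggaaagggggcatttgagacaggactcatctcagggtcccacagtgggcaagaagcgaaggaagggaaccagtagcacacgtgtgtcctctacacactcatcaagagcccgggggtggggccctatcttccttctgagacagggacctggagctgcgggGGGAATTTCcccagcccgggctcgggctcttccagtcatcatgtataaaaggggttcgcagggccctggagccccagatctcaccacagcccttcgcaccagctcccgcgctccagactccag
Cxcl2: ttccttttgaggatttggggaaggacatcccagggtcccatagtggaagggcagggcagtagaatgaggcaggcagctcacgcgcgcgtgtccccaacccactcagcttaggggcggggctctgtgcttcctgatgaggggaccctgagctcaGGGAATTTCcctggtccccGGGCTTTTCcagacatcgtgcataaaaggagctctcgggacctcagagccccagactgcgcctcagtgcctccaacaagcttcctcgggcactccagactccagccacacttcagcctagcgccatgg
Tlr13: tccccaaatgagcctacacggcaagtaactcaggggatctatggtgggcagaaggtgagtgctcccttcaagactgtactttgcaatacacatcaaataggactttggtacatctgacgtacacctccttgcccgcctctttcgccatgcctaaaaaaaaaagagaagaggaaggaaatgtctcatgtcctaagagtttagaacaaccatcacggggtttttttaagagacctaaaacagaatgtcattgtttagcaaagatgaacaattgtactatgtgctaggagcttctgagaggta

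In these 8 windows the ISRE core stood at -58 from the start in Gbp2, at -136 in Gbp2b, at -216 in Serpina3f and at -213 in Cxcl10, all genes lower in RM1. Irf1, also lower, held GAS at -90. The higher genes Cxcl3 and Cxcl2 held κB, at -73 and at -97 and -78, and Gbp2 also held κB, at -200. Only the letters GGGNNTTTC were counted as κB, and κB sites spelled otherwise were not searched. The Cxcl10 and Irf1 windows, which held no match to these letters, may thus still hold κB sites, so the windows do not separate lower from higher genes by κB. The Tlr13 window held none of these letters.

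Of the proteins that relay interferon signals, 3 of 17 were lower and 0 higher, while the receptors and kinases persisted. Irf1 (NM_001159393), the master IRF of the IFN-γ response, had 21.1 CPM in M0, 20.6 in RM0, 584 in M1 and 103 in RM1. RM1 thus held less than M1 but more than either library without LPS and IFN-γ, and the log2 ratio of RM1 to M1 was -2.51 (-2.58 to -2.43). Irf8, a partner of IRF1 in macrophages, had 75.3, 79.2, 421 and 123 CPM, a log2 ratio of -1.77 (-1.85 to -1.70). Socs1, the feedback inhibitor of JAK kinases under IFN-γ, fell from 205 to 63 counts, with a log2 ratio of -1.85. Batf2, an AP-1 family partner of IRFs outside the list but among the 15 lowest genes, had 1.21, 0.766, 38.9 and 4.32 CPM and fell by 3.14.

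Irf7, the IRF of the type I interferon loop, had 301, 346, 3821 and 2397 CPM in M0, RM0, M1 and RM1, with a log2 ratio of -0.67, and was not called. Stat2 had -0.22, Irf9 -0.03, Jak1 0.01, Jak2 0.22 and Ifngr1 0.39. Socs3, the feedback inhibitor of IL-6 signalling, had 2161 CPM in M1 and 2215 in RM1, a log2 ratio of 0.04 (0.01 to 0.06). Of the 2 feedback inhibitors, Socs1 was thus lower and Socs3 stayed at the M1 level.

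**Figure D3:**
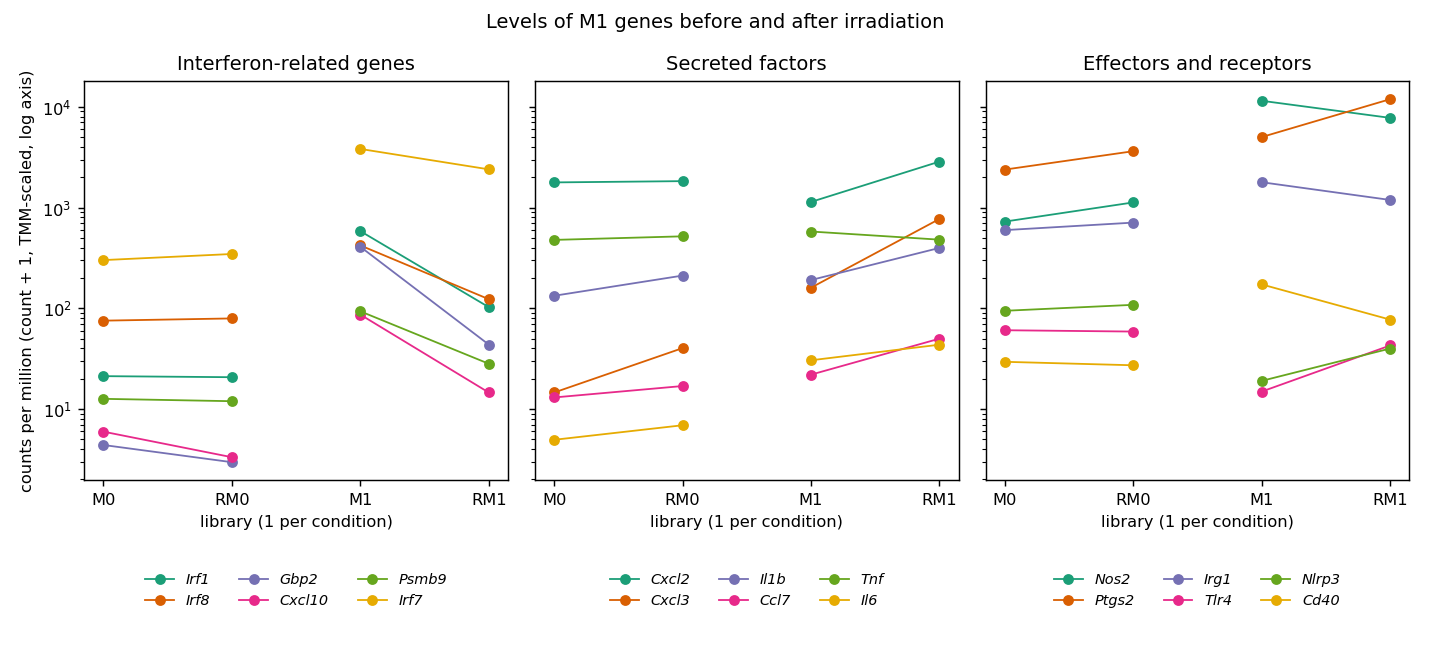
CPM (from the count plus 1, log axis) in M0, RM0, M1 and RM1 (x axis) for 18 genes in 3 panels, 1 pooled library per condition, with lines joining the values of a gene. Irf1 and Gbp2 drop from M1 to RM1 and stay above M0, Cxcl3 and Ptgs2 climb from M1 to RM1, and Nos2 stays within 2-fold of M1.

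In MHC class I antigen processing, 8 of 16 genes were lower and 0 higher, with a median of -0.89, and the called genes served the making and transport of peptides, apart from H2-T23. The 3 inducible subunits of the immunoproteasome, which replace constitutive ones to cut peptides for MHC class I, were all lower. Psmb10 had 11.7 CPM in M0, 12.3 in RM0, 152 in M1 and 36.5 in RM1, a log2 ratio of -2.05 (-2.19 to -1.93). Psmb9 had -1.73 and Psmb8 -1.20. They were the only genes called among 38 proteasome subunits used. Tap1 and Tap2, the peptide transporter, had -1.28 (10148 and 4725 counts) and -1.30. The nonclassical molecule H2-T23 had -1.12 and the proteasome activator Psme2 had -1.02, with its partner Psme1 just inside the limit (4259 and 2400 counts). Psme1 overlaps Emc9.

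The classical molecules H2-D1 and H2-K1 had -0.61 and -0.29 and their light chain B2m -0.53, at 2764 CPM in M1 and 1916 in RM1, and were not called. Nlrc5, the transactivator of class I genes, had -0.45. Of the 8 lower calls, 5 were left both with library totals and with the GC trend removed, where H2-T23, Psme1 and Psme2 went under 2-fold. With the GC trend removed their log2 ratios were -1.0, -0.83 and -0.93. In M1 against M0 14 of 16 members were called higher and in RM1 against RM0 7 of 16. MHC class II was scarce in these cells, with H2-Aa and Ciita at 0 counts in M1 and 1 in RM1 and H2-Eb1 at 13 and 1 (-2.55, interval -9.28 to -1.14), while the invariant chain Cd74 had 1043 and 967 CPM.

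Ligands for T cells mostly persisted, with 1 of 11 lower. Cd40, the receptor through which T cells license macrophages, had 29.3, 27.1, 172 and 77.1 CPM in the order M0, RM0, M1 and RM1, and fell by 1.16 on the log2 scale (-1.26 to -1.06). Cd86, the costimulatory ligand used to mark M1 cells, had -0.80 (493 and 319 counts) and Slamf7 -0.94. By contrast Cd80 had 0.17, and Cd274, which encodes PD-L1, had 588 and 502 CPM, a log2 ratio of -0.23. Cd80 and Cd86 both bind CD28, and the former stood at the M1 level while the latter was lower without reaching the 2-fold limit.

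Antiviral interferon-stimulated genes largely persisted. Of 26, 5 were lower, 0 higher and 21 within 2-fold, with a median of -0.42, and 3 were lower with library totals, where Ifit3 and Ifi205 had -0.91 and -0.86. Ifit2, which binds viral RNA, had 13.1 CPM in M0, 9.44 in RM0, 289 in M1 and 94.2 in RM1, a log2 ratio of -1.62 (-1.70 to -1.53). Oasl2 fell by 1.20 and Mx1 from 54 to 17 counts, by 1.74. Rsad2, which encodes viperin, had 842 and 559 CPM in M1 and RM1 (-0.59), Isg15, a ubiquitin-like modifier, 857 and 506 (-0.76), and Ifit1 69.8 and 59.7 (-0.23). The RNA sensors Ddx58 (RIG-I) and Ifih1 (MDA5) had 0.19 and 0.33, and Eif2ak2 (PKR) 0.37. In M1 against M0 19 of the 26 were called higher, and in RM1 against RM0 24. Of 17 antiviral promoters found, 12 held the ISRE core, so a match to these letters was also frequent among genes that persisted. In RM2 against M2 2 of 24 were lower and in RM0 against M0 0 of 24 were called.

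CXC chemokines split into ligands that fell and ligands that rose. The ligands of CXCR3, which recruit T and NK cells and are induced by IFN-γ, were all lower. Cxcl9 had 0 counts in M0, 0 in RM0, 54 in M1 and 3 in RM1, a log2 ratio of -3.71 with a wide interval of -6.67 to -2.72. Cxcl10 had 5.90, 3.27, 86.4 and 14.5 CPM, a log2 ratio of -2.57 (-2.78 to -2.37). Its log2 ratio was -0.83 in RM0 against M0 and -1.31 in RM2 against M2, on 120 and 46 counts in the latter. Cxcl10 was thus called lower in a state without IFN-γ too. Cxcl11 fell from 161 to 28 counts (-2.62). It is listed under a noncoding accession (NR_038116).

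The ligands of CXCR2, which recruit neutrophils, rose. Cxcl3 (NM_203320, chromosome 5, 90786101 to 90788093) had 14.5 CPM in M0, 40.2 in RM0, 160 in M1 and 771 in RM1, a log2 ratio of 2.27 (2.20 to 2.33). It was also higher in RM0 against M0, by 1.46, and had 0.95 in RM2 against M2. Cxcl2 had 1778, 1830, 1137 and 2860 CPM, so its level was lowest in M1 and highest in RM1, with a log2 ratio of 1.33 (1.30 to 1.36) and with 0.04 in RM0 against M0. Cxcl16 had -0.58, and Cxcl1 and Cxcl5 had 2 counts or fewer in M1 and RM1. The 2 calls upward and 3 downward among 6 genes leave a median of -1.57 that describes no member.

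Of 9 CC chemokines, 1 was higher, 2 were lower and the abundant ones persisted. Ccl3 and Ccl4, which attract monocytes and T cells, had 3301 and 4812 CPM (0.54) and 875 and 1461 CPM (0.74) in M1 and RM1. Ccl5, which attracts T cells, had 36.2 in M0, 36.7 in RM0, 675 in M1 and 472 in RM1, a log2 ratio of -0.52. Ccl2, which recruits monocytes, had 0.25. Ccl7 rose from 323 to 831 counts, by 1.19, or 0.98 with the GC trend removed. The lower pair were Ccl6, from 165 to 62 counts (-1.56), and Ccl12, from 27 to 9 (-1.58, interval -3.03 to -0.63).

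Interleukins behaved unevenly, with 2 of 15 higher and 2 lower. Il1b had 133 CPM in M0, 211 in RM0, 191 in M1 and 397 in RM1, a log2 ratio of 1.06 (1.00 to 1.12), which was 0.95 with the GC trend removed. Lif, of the IL-6 family, had 117, 183, 202 and 424 CPM and rose by 1.07. Both were highest in RM1, and in RM0 against M0 their log2 ratios were 0.67 and 0.65, under the 2-fold limit. Il27, the p28 chain of IL-27, fell from 71.1 to 21.0 CPM, a log2 ratio of -1.76 (-1.94 to -1.59), while its partner chain Ebi3 had -0.43. Il18bp, the IFN-γ-induced decoy of IL-18, fell from 464 to 91 counts, a log2 ratio of -2.50, and Il18 had 0.31.

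The other cytokines associated with M1 cells persisted. Tnf had 477 CPM in M0, 518 in RM0, 578 in M1 and 480 in RM1 (-0.27), so the 4 levels lay close together. Il6 had 4.89, 6.84, 30.4 and 43.4 CPM (0.51) and Il1a 2.87, 3.27, 42.4 and 42.1 (-0.01). Il1rn, the receptor antagonist of IL-1, had 5792 and 6732 CPM in M1 and RM1 (0.22), and Il10 had 0.69 (148 and 271 counts). Il12b had 27 and 16 counts (-0.86, interval -1.92 to 0.02) and Il12a 0 in every library, so IL-12 was near the limit of detection. Il11 and Csf2 were called higher. Il11, an IL-6 family cytokine outside the list but among the 15 highest genes, had 27.5, 42.1, 8.05 and 33.3 CPM (2.04). Its log2 ratio was 0.61 in RM0 against M0 and 1.34 in RM2 against M2. Csf2, which encodes GM-CSF, had 52 and 126 counts in M1 and RM1 (1.08, or 0.93 with the GC trend removed), the only call among 11 growth factors. Csf3, or G-CSF, had 0.67 and Vegfa 0.86.

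Genes of prostaglandin synthesis had 2 of 11 higher and 0 lower, with a median of 0.56. Ptgs2, or COX-2, which makes the prostaglandin precursor, had 2383 CPM in M0, 3629 in RM0, 5014 in M1 and 11920 in RM1, the highest level of the 4, on 198747 counts. The log2 ratio of RM1 to M1 was 1.25 (1.24 to 1.26), and 0.97 with the GC trend removed, so the call but not the direction rests on that trend. Pla2g4a, the phospholipase that releases arachidonic acid, had 0.91 (3154 and 6673 counts), and Ptges, the terminal synthase, 0.17. Ptgs1, or COX-1, had 107 counts in M0, 78 in RM0, 3 in M1 and 19 in RM1 (2.00, interval 0.73 to 4.89).

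Nitric oxide synthesis persisted. Nos2, the inducible synthase, had 726 CPM in M0, 1125 in RM0, 11492 in M1 and 7775 in RM1, a log2 ratio of -0.56 (-0.57 to -0.55). Slc7a2, the inducible transporter of its substrate arginine, had 11.2 CPM in both M1 and RM1. Ass1, which recycles citrulline to arginine, was the only called gene of 10, with 160 and 53 counts (-1.73). Its counts are identical to those of the overlapping Gm5424, so the gene of origin is uncertain. Arg1 had 5 counts in M1 and 1 in RM1, and Arg2 had 0.89.

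Metabolic genes of activated macrophages persisted. Irg1, which encodes the enzyme making itaconate, had 597, 709, 1785 and 1190 CPM in M0, RM0, M1 and RM1 (-0.59). Here 0 of 22 genes of itaconate and the TCA cycle were called. Of 23 glycolysis and HIF1A genes, 1 was higher and 1 lower. Pdk1, which holds pyruvate back from mitochondria, rose from 117 to 273 counts (1.04, or 0.94 with the GC trend removed). Hif1a had 0.83, Hk2 0.88 and Hk3 -0.90, so the hexokinases lay on opposite sides of 0, and the glucose transporter Slc2a1 had -0.03 at 1716 and 1685 CPM. The lower gene was Gapdh, with 829 and 413 counts. Its count in M1 lay far below the 70198 of Pgk1. None of 12 genes of the NADPH oxidase and superoxide defence was called. Cybb, the catalytic subunit, had 1088 and 794 CPM (-0.45) and Sod2 481 and 374 (-0.36).

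Several receptors that stood lower in M1 than in M0 rose in RM1. Of 13 Toll-like receptor genes, 2 were higher and 0 lower, with a median of 0.47. Tlr4 had 60.5 CPM in M0, 58.6 in RM0, 14.8 in M1 and 42.6 in RM1, a log2 ratio of 1.52 (1.31 to 1.75). Tlr13, a sensor of bacterial ribosomal RNA, had 21.5, 23.9, 3.58 and 12.1 CPM and rose by 1.72 (1.31 to 2.21). Both RM1 values lay between those of M1 and M0. Tlr7 had 0.82, Tlr9 0.85 and Tlr2 0.81, while the coreceptor Cd14 had 4327 and 5197 CPM (0.26) and the adaptor Myd88 -0.37. In M1 against M0 5 of the 13 were lower and 0 higher, and in RM1 against RM0 1 was lower.

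Nlrp3, the sensor of the inflammasome that matures IL-1β, had 94.3, 108, 18.9 and 39.8 CPM in M0, RM0, M1 and RM1 and rose by 1.07 (0.87 to 1.28). With Il1b it was 1 of the 2 higher genes among 12 of the inflammasome list. Casp1 and Gsdmd, which execute pyroptosis, had -0.78 and -0.71, and the adaptor Pycard had 0 counts in every library. Of 7 chemoattractant receptors used, Ccr1 was higher, with 80.3, 94.5, 41.1 and 95.9 CPM in M0, RM0, M1 and RM1 (1.22, or 0.92 with the GC trend removed). The complement receptors C3ar1 and C5ar1 had 0.89 and 0.83. Fpr2, a formyl peptide receptor, fell from 30 to 12 counts (-1.37, interval -2.60 to -0.49). Among 6 complement genes, Cfb, the alternative pathway factor B, had 1.61, 4.29, 295 and 128 CPM in M0, RM0, M1 and RM1 and fell by 1.20.

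NF-κB subunits and inhibitors persisted, with 0 of 18 called and a median of 0.12. Nfkbia, which encodes IκBα, had 315 CPM in M0, 357 in RM0, 949 in M1 and 1054 in RM1 (0.15, interval 0.12 to 0.18). Tnfaip3, or A20, had 22.8, 31.6, 159 and 110 CPM (-0.53) and Nfkbiz 0.56. Rel had 0.76 and Rela 0.10. Of the 15 promoters of this list found, 5 held the κB letters, and of 4 CXC promoters 3 did. Likewise 0 of 14 genes of nucleic acid sensing and 0 of 21 death receptor and BCL2 family genes were called. Tnfrsf10b, the TRAIL receptor, had 0.97 and Bak1 -0.81. Of 15 Fc, lectin and scavenger receptors, Mrc1 was lower, with 50 and 26 counts (-1.07), and -0.92 with library totals, and Fcgr1, the high-affinity IgG receptor, had 352 and 278 CPM (-0.34).

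The genes with the largest ratios among those with 100 or more counts repeated these groups and added others. The lowest was Serpina3f (NM_001033335, chromosome 12, listed from 104216869 to 104221129), a serine protease inhibitor, with 4, 0, 594 and 29 counts in M0, RM0, M1 and RM1 and a log2 ratio of -4.45 (-5.12 to -3.99). Its neighbour Serpina3g fell from 130 to 9 counts (-3.78), and reads may be shared among the near copies of this family. Of the 15 lowest genes 7 were GBPs or Iigp1, 2 were CXCR3 ligands and 2 were Serpina3 genes. Gadd45g, a stress-induced gene, fell from 118 to 17 counts (-2.84), and it was lower in RM0 against M0 too, on 17 and 2 counts (-2.20). The small RNA entries Mir1938 (126 and 17 counts, -2.94) and Snord55 (151 and 22, -2.85) were also among the 15 lowest.

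Among the 15 highest genes were those of coagulation and the cell surface. Thrombomodulin (Thbd), a cofactor that turns thrombin to an anticoagulant role, had 25 counts in M1 and 340 in RM1, and thrombospondin 1 (Thbs1) 25 and 202, log2 ratios of 3.51 and 2.76. Thbd had 15.9, 33.8, 1.69 and 20.4 CPM in M0, RM0, M1 and RM1, and Thbs1 5.24, 12.4, 1.69 and 12.1. Both were thus lower in M1 than in M0, and their RM1 levels were not above those of RM0. Both were also called higher in RM0 against M0 and in RM2 against M2. Serpinb2, the inhibitor of plasminogen activators, had 63.9, 117, 195 and 633 CPM in M0, RM0, M1 and RM1 and rose by 1.70 (1.64 to 1.76). Its log2 ratio was 0.88 in RM0 against M0 and 1.14 in RM2 against M2. With F3 (5 and 14 counts, 1.09, or 0.98 with the GC trend removed), Thbd, Thbs1 and Serpinb2 made 4 higher of 14 matrix and coagulation genes, with a median of 0.50.

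Akap12, a kinase scaffold, rose from 307 to 1701 counts (2.29), Abca1, the cholesterol exporter, from 883 to 3810 (1.93), and Trem1, a receptor that amplifies TLR signals, from 42 to 178 (1.87). Abca1 had 120 CPM in M0, 224 in RM0, 59.7 in M1 and 229 in RM1. Trem1 had 8.22 CPM in M0, 9.90 in RM0, 2.84 in M1 and 10.7 in RM1. For both genes RM1 thus stood near the level of RM0, and M1 below M0. Flrt3, an adhesion protein, rose from 23 to 127 counts (2.22) and Bdkrb1, the inducible bradykinin receptor, from 32 to 136 (1.86). Fam43a (2.04) and Ceacam19 (1.94) were lower in M1 than in M0, with 1.56 and 10.2 CPM, and 1.62 and 16.2 CPM. Gm11710 and Gm11711 are listed at the same 75 bases with identical counts, 13 and 116, and are counted as 1 signal (2.84). In RM0 against M0 and RM2 against M2, Abca1 had 0.90 and 1.20, and the Gm11710 signal 0.59 and 2.21. Bdkrb1 had 1.14 (8 and 20 counts) and 1.59 (6 and 22 counts). Akap12, Trem1, Flrt3, Fam43a and Ceacam19 were within 2-fold in both pairs.

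**Figure D4:**
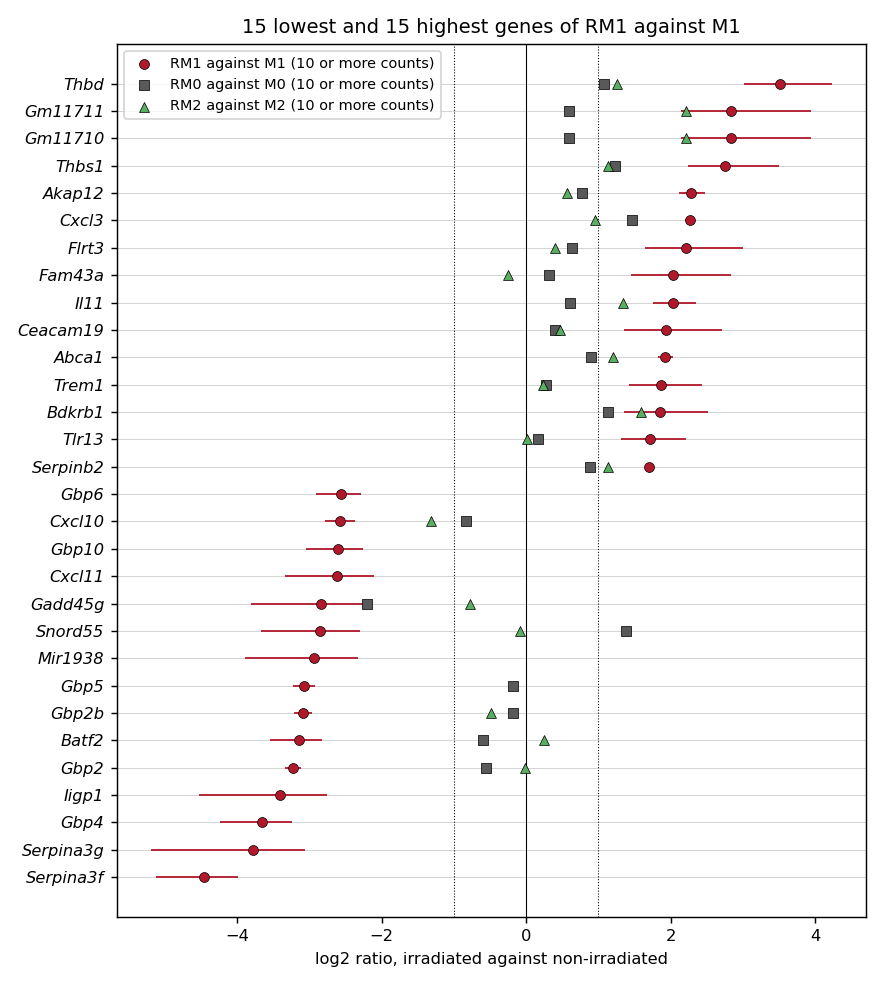
Log2 ratio of the irradiated to the non-irradiated library (x axis) for the 15 highest and 15 lowest genes of RM1 against M1 with 100 or more counts (y axis), in M0, M1 and M2 states. Bars are 95% counting intervals of RM1 against M1, and points of the other states appear only where 10 or more counts were present. Thbd and Thbs1 are above 1 in all 3 states, and Cxcl3 is at 1.46 in RM0 and 0.95 in RM2.

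Genes that answer DNA damage were set beside the M1 functions. Of 26 p53 targets used, 5 were higher in RM1 and 0 lower, with a median of 0.26, while 0 of 26 were called in RM0 and in RM2, with medians of 0.17 and 0.20. Whether the states differ in this list was not tested. Phlda3, an inhibitor of AKT, had 11.7 CPM in M0, 20.5 in RM0, 3.79 in M1 and 11.5 in RM1, a log2 ratio of 1.58 (1.17 to 2.06) beside 0.80 in RM0 against M0. Btg2, which slows division, had 68.2, 73.4, 16.6 and 42.6 CPM (1.35), and Ccng1 123, 186, 158 and 337 CPM (1.09). Trp53inp1 had 1.25 and Eda2r 1.06. With the GC trend removed 2 remained called, as Ccng1, Trp53inp1 and Eda2r had 0.83, 0.95 and 0.80, and with library totals 8 were. Mdm2, the inhibitor of p53, had 0.93 and Cdkn1a, which arrests the cycle, 1223 and 1318 CPM (0.11), and Bbc3 and Bax had -0.53 and -0.13.

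Of 27 genes of mitosis and G2/M, 4 were lower and 0 higher, with a median of -0.28, beside 6 lower of 30 and a median of -0.75 in RM0 and 2 lower of 30 and -0.77 in RM2. The 4 were Ube2c (72 and 28 counts, -1.48), Kif20a (19 and 8, -1.24), Cdc20 (48 and 22, -1.23, or -0.99 with GC and length trends removed) and Aurkb (131 and 63, -1.21). Counts were low in M1 already, as Ube2c had 12.5 CPM in M0 and 4.87 in M1. Cdc20 overlaps Elovl1. At a limit of 50 counts 2 of the 4 were left. Of 33 DNA replication genes 30 lay below 0, with a median of -0.41, beside -0.61 in RM0 and -0.5 in RM2. Over all genes used 48.7% lay above 0. The housekeeping lists also lay mostly below 0 in RM1, with 76 of 78 respiratory chain, 85 of 98 ribosomal and 33 of 38 proteasome entries. Their medians were -0.29, -0.25 and -0.25, so a shift below 0 was not particular to replication genes. In RM1 0 replication genes were called lower and 1 was higher, Ccne2, with 9 and 31 counts (1.46), and it overlaps Ints8. Of 18 genes of damage signalling and repair, Atr (24 and 82 counts, 1.54) and Brca2 (16 and 47, 1.30) were higher. Both were lower in M1 than in M0, where Atr had 20.1 CPM and Brca2 8.32, and Brca2 had 0.83 with GC and length trends removed. Atr overlaps 1700065D16Rik.

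**Figure D5:**
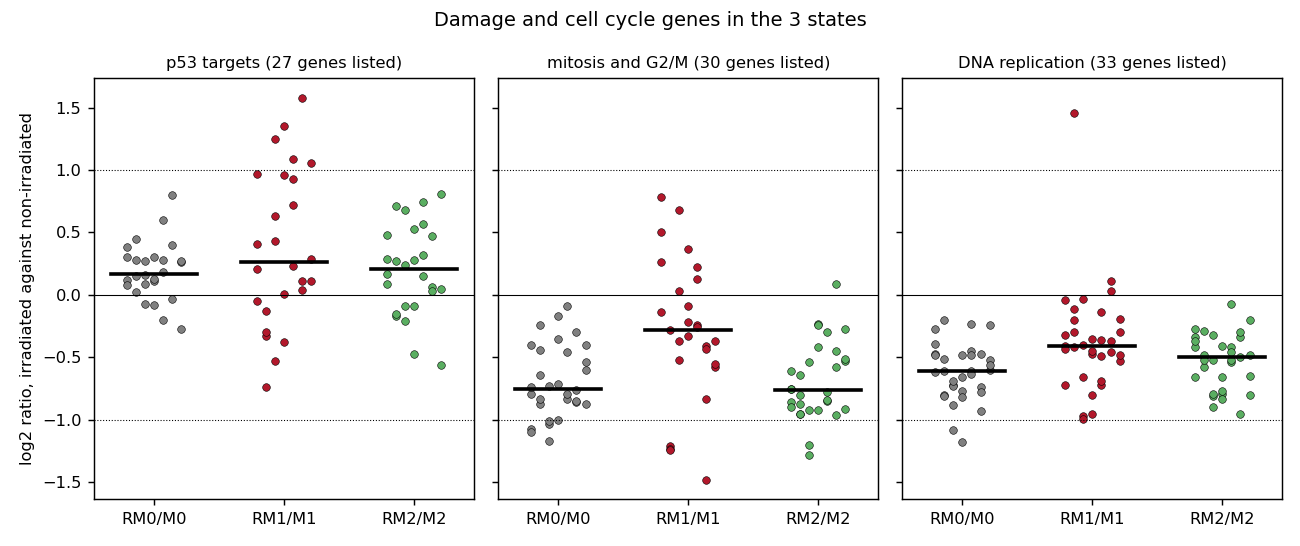
Log2 ratio of the irradiated to the non-irradiated library (y axis) for p53 targets, mitosis and G2/M genes and DNA replication genes in the M0, M1 and M2 states (x axis), each point 1 gene with 10 or more counts and each bar the median. The mitosis medians are -0.75 in RM0, -0.28 in RM1 and -0.77 in RM2, and the p53 medians 0.17, 0.26 and 0.20.

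The remaining lists held few calls. Ftl1, the ferritin light chain, was the only called gene of 15 in iron handling, with 24456 CPM in M1 and 12037 in RM1 (-1.02, or -0.88 with library totals and -0.83 with the GC trend removed), and Hmox1, which frees iron from haem, of 14 NRF2 targets, with 780 and 365 CPM (-1.09, or -0.95 with library totals, -1.0 and so just under 2-fold with the GC trend removed, and -0.89 with GC and length trends removed). None of 27 lysosome, 23 cholesterol, 10 fatty acid, 16 autophagy, 12 heat shock, 21 AP-1 or 78 respiratory chain genes was called, nor was any of the 19 genes used from a list of 31 that joins exosome machinery with genes the study examined. The other 12 of that list, with Myh10, Myo5b, Egfr, Igf1r and Cd34 among them, had fewer than 10 counts in both libraries. Of 26 unfolded protein and ATF4 genes, Ddit4 (714 and 2070 counts, 1.36) and Chac1 (216 and 598, 1.29) were higher. Of 10 MAP kinase phosphatase and Sprouty genes, Spred1, an inhibitor of RAS, had 354 CPM in M0, 381 in RM0, 132 in M1 and 330 in RM1 (1.32, or 0.94 with GC and length trends removed), and Spry4 had 4 and 13 counts (1.23). Among 98 ribosomal entries, a list taken by name pattern that also holds Rps6k kinases and pseudogenes, 2 were higher and 3 lower. Rps2 among them had 1972 and 393 counts (-2.49), while the median was -0.25. Of 33 replication-dependent histone genes 2 were higher and 3 lower, of 10 osteoclast genes Itgb3 was higher (4 and 16 counts, 1.50), and 0 of 14 G1 cyclins and CDK inhibitors were called. Of 8 genes of the IL-4 response used, Mrc1 was the only one called.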

How the data were processed

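RNA of RAW264.7 cells in 6 conditions was sequenced, 1 pooled library each. The authors deposited whole-number read counts per gene, not normalized; the submitters' processing notes name Trimmomatic 0.36, HISAT2 2.2.1, HTSeq 0.11.3 and the build mm10. Whether counting used strand is not given in the sources used here. Columns of the authors' own comparisons were not used. Tables were joined on gene identifier and symbol, and 27 symbols that a spreadsheet had turned into dates were left as listed.

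Counts were scaled with TMM factors (edgeR 4.0.16 in R 4.3.3) from 11574 genes with 10 or more counts in at least 3 libraries, and log2 ratios took a prior count of 2. CPM uses the scaled library sizes. With 1 library per condition no test was run. DESeq2 1.42.0 size factors were an alternative, as were library totals, TMM over RM1 and M1 alone, a prior count of 0.25, limits of 0 or 50 counts, a 4-fold threshold and lowess removal of the GC trend (statsmodels 0.14.6). TMM factors from all genes and removal of GC and length trends were chosen after seeing the data. Python 3.11.15 with pandas 2.3.3, scipy 1.17.1 and matplotlib 3.10.9 did the rest. The log2 ratio was tested on simulated data with known changes. There RM1 was a copy of M1 with counting error and the set changes only. The simulation thus held no GC trend between the 2 libraries and no spread between cultures, and says nothing about either.

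Named genes are members of the 55 gene lists, and the 15 highest and 15 lowest genes with 100 or more counts in M1 or RM1. The members, lists and tests were chosen with earlier results of these data known.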

Additional observations from a re-analysis of the deposited data

Results flagged for a closer look

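In 3 genes irradiation was followed by calls in opposite directions in the M0 and the M1 state. With 1 library per condition the difference between the states was not tested. Cfb, complement factor B, was higher in RM0 against M0 with a log2 ratio of 1.35, on 32 and 84 counts, and lower in RM1 against M1 with -1.20, on 4367 and 2138 counts. Snord55, a small nucleolar RNA, had 1.39 in RM0 against M0, on 6 and 19 counts, and -2.85 in RM1 against M1, on 151 and 22 counts. Spry4, an inhibitor of growth factor signalling, had -1.19 in RM0 against M0, on 63 and 26 counts, and 1.23 in RM1 against M1, on 4 and 13 counts. For Snord55 and Spry4, 1 side of the contrast rests on fewer than 30 counts in each library.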

How the results depend on the processing

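The 111 called genes from the lists and from the 15 highest and 15 lowest genes kept their direction under each alternative of scaling, prior count or trend removal, and 0 were reversed. The other limits and the 4-fold threshold leave a gene's ratio as it is. Under 2-fold went 0 of them with DESeq2 size factors, 0 with a prior count of 0.25, 3 with TMM over RM1 and M1 alone, 5 with TMM factors from all genes, 11 with library totals, 20 with the GC trend removed and 21 with GC and length trends removed. The higher genes numbered 353, and 169 at 50 or more counts, 676 with no filter and 31 at 4-fold. The lower genes numbered 258, and 135, 553 and 53 under the same settings. The split of 353 higher and 258 lower became 482 and 202 with library totals. Lower antiviral genes were 5, and 3 with library totals. Lower genes of MHC class I antigen processing were 8, and 5 with library totals, with the GC trend removed and with GC and length trends removed. Higher p53 targets were 5, and 8 with library totals, 2 with the GC trend removed and 2 with GC and length trends removed. Lower genes of mitosis and G2/M were 4, and 2 at 50 or more counts. The stricter limits tested fewer genes, and the cause of the other shifts was not tested. Of 49 list medians, 30 moved with library totals, under which the median of all genes was 0.129. No paired analysis was possible because M1 and RM1 have 1 library each. A fit of irradiation over the 3 states with state as a block is not specific to M1 and was not run. Depth limits the rare genes, since a gene under 10 counts in both libraries was not called.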
